A study of Mus musculus with 12 samples.

Results

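The genes described are 7 genes of the sphingosine 1-phosphate (S1P) system: the receptors S1pr1, S1pr2, S1pr3 and S1pr4, the kinases Sphk1 and Sphk2 that make S1P, and the lyase Sgpl1 that destroys it. They were taken as all probe sets annotated with 1 of these symbols, which gave 13 probe sets out of 34945 with a single gene symbol. A gene was represented by its probe set with the highest mean, and 6 of the 7 genes were among the 12918 genes (of 18193 named) that passed the filter on low values. Sphk1 did not pass: its mean was 5.06 over all 12 arrays, under the limit of 5.10, and 4.69 without INV16 replicate 4. The family was chosen because S1pr3 was lower in INV16 than in MIB control arrays, so the values of all 7 genes in that comparison are given as a description with no test, as are those of S1pr3 in INV16 against the ACD mutant, which uses the same INV16 arrays.

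S1P is a lipid made from sphingosine inside cells and carried out of them by transporters. Outside the cell it acts on G protein-coupled receptors: S1PR1 couples to Gi and draws blood and lymphoid cells towards S1P, whereas S1PR2 and S1PR3 also couple to G12/13 and Gq. S1P is high in blood and low inside tissues, and this gradient is known to guide the exit of lymphocytes and of haematopoietic progenitors from the marrow and lymphoid organs.

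The RNA came from normal mouse bone marrow cells sorted as lineage-negative, c-Kit+, Sca-1+ and Flt3-negative; strain, sex and age are not given in the sources used here. All groups shared the same culture: 24 h in DMEM with 10% FBS, stem cell factor at 50 ng/ml and IL-6 at 5 ng/ml, 4 h with retrovirus and polybrene, and 20 h in fresh medium, after which GFP-positive cells were sorted. The virus was the empty MIB vector in 5 samples (MIB control, replicates 3 to 7), one encoding INV16 in 4, and one encoding an INV16 deleted of its assembly competence domain, described in the design as not leukaemogenic, in 3 (ACD mutant). INV16 is the fusion of the transcription factor subunit CBFB with the myosin heavy chain MYH11 found in acute myeloid leukaemia; CBFB is the partner of RUNX proteins. Expression was from a virus in a short culture, so the fusion was not at its own locus. Replicates came from separate sorts and transductions.

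Since CBFB pairs with RUNX proteins, the 250 bases before the gene starts (RefSeq, mouse build GRCm38.p6) were searched for the RUNX core letters TGTGGT and TGCGGT on both strands. The window of S1pr3, the gene that the family was chosen on, and the Sphk2 window with a match are shown, 5′ to 3′ on the gene's strand, with a match in capitals. The S1pr3 window is chr13:51408368-51408617 on the plus strand, and the Sphk2 window is chr7:45718003-45718252 on the minus strand.
S1pr3: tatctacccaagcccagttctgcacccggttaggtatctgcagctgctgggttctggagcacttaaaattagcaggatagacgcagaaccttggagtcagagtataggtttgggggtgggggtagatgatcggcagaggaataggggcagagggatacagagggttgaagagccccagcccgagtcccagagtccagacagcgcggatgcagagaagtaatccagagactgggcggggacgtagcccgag
Sphk2: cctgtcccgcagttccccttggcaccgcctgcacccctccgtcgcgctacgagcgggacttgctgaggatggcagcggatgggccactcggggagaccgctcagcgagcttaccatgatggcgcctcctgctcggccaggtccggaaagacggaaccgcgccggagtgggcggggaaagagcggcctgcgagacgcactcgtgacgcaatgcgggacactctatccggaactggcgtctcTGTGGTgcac
The S1pr3 window held neither set of letters. In the Sphk2 window TGTGGT began 10 bases before the start. Windows were found for 6 of the 7 genes, and S1pr1, which had none, was not searched. There were 11 in all because Sphk1 and Sphk2 have several starts, and 3 of the 11 held a match. These were the Sphk2 window shown, 1 of the 5 of Sphk1 (24 bases before the start) and that of Sgpl1 (161 bases before). Of all 32851 windows, 18.59% held a match, 14.05% with TGTGGT and 5.099% with TGCGGT, so a match is common and is given here as a description only.

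The arrays were not alike in ways that the groups do not explain. INV16 replicate 4 stood apart. Its correlation with the other arrays was 0.895 to 0.917, its mean over 9 mast cell markers (7 above the filter, 4 of them also without that array) was 10.35 against 5.87 to 6.70 elsewhere, and its mean over 6 progenitor markers (all above the filter) was 9.04 against 11.01 to 11.53. The progenitor marker Cd34 measured 7.39 there and 11.15 to 12.35 on the other 11 arrays, whereas Kit, at 10.99, lay within their range of 10.26 to 11.43. Values are therefore given over 11 arrays, with INV16 replicate 4 named apart and its effect on each difference stated. The difference between the spike-in controls BioC and BioB split the arrays into 2 sets, although the labels name no batch. It was 1.07 to 1.21 log2 in batch A (MIB control replicates 3 to 5, INV16 replicates 1 to 3) and -0.11 to 0.07 in batch B (the other 6 arrays). INV16 without replicate 4 and the ACD mutant thus shared no batch. RNA integrity, read as the signal of the 3′ over the 5′ Gapdh probe set, stood out on 2 arrays: the log2 difference was 3.64 for INV16 replicate 4 and 3.17 for the first ACD mutant replicate, against 1.10 to 1.98 on the remaining 10.

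S1pr3 was the member with the widest spread between groups. On its main probe set (1438658_a_at) the log2 values were 8.14, 8.28, 8.19, 8.67 and 7.86 in MIB control replicates 3 to 7 (8.23 ± 0.29, SD, n = 5). They were 7.49, 7.15 and 7.54 in the ACD mutant (7.40 ± 0.21, n = 3) and 6.65, 6.75 and 6.39 in INV16 replicates 1 to 3 (6.60 ± 0.18, n = 3). No 2 of these 3 groups overlapped: every MIB control array lay above every ACD mutant array, and every ACD mutant array above every INV16 array. INV16 replicate 4, at 8.83, was higher than any control. In such bulk RNA, fewer cells that express a gene and less RNA per cell cannot be told apart.

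**Figure D1:**
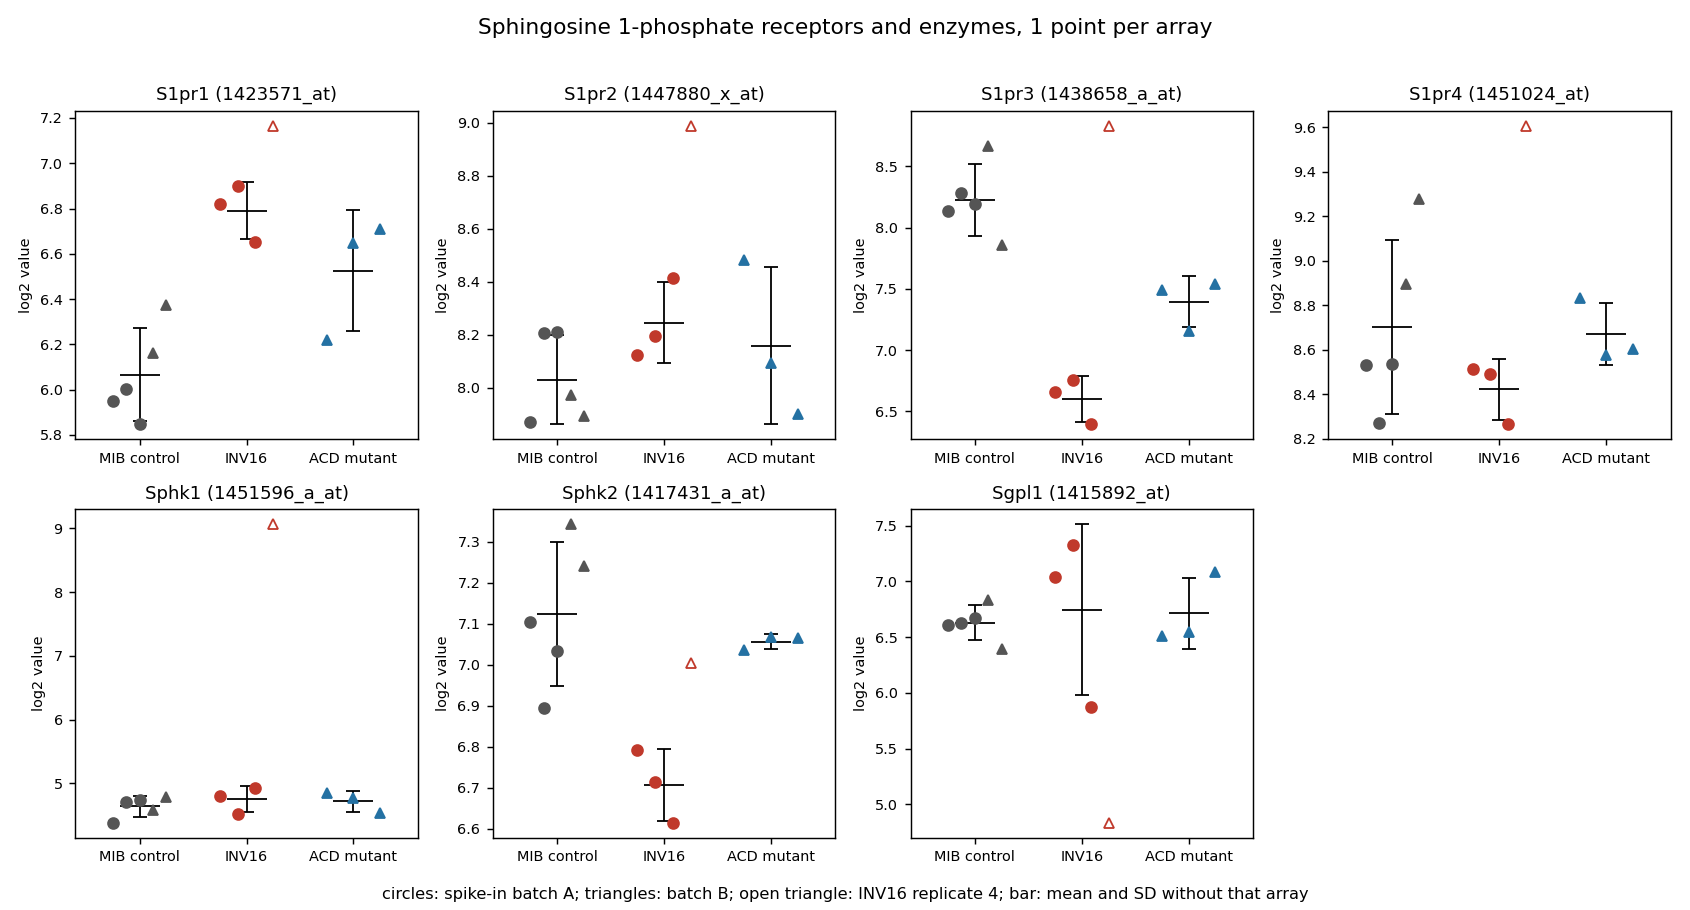
Log2 value of each of the 7 genes on its main probe set (y axis, log2 units), 1 point per array, in MIB control, INV16 and ACD mutant arrays; bars are the mean and SD without INV16 replicate 4, which is drawn open, and circles and triangles mark spike-in batches A and B. S1pr3 goes from 8.23 in MIB control to 7.40 in the ACD mutant and 6.60 in INV16 with no overlap, while Sphk1 stays between 4.38 and 4.93 on every array but INV16 replicate 4, at 9.06.

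In the ACD mutant, S1pr3 was 0.83 log2 lower than in MIB control (SE 0.16, 95% interval -1.18 to -0.48, 1.78-fold; limma adjusted p = 0.0360), and lower in 3 of 3 arrays. The MIB control arrays also entered the comparison that S1pr3 was chosen on, so this is not an independent test of S1pr3. The size changed little within batch B alone (-0.87, adjusted p = 0.107) or with a batch block (-0.87, adjusted p = 0.0883), but the call was lost in both. The call was also lost without MIB control replicate 5 (adjusted p = 0.0742), ACD mutant replicate 1 (0.138) or ACD mutant replicate 2 (0.189), and with INV16 replicate 4 in the fit, which widened the shared spread (0.808). ACD mutant replicate 1, with its high Gapdh difference, had an S1pr3 value of 7.49, between those of the other ACD mutant arrays.

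In INV16, S1pr3 was 1.63 log2 lower than in MIB control (SE 0.16, 95% interval -1.98 to -1.27), or 3.09-fold, which is the value it was chosen for. Within batch A, which holds all 3 INV16 arrays and 3 of the controls, the difference was -1.60, and with INV16 replicate 4 it was -1.07. Against the ACD mutant INV16 was 0.80 log2 lower (SE 0.18, 95% interval -1.19 to -0.40), with -0.74 when the batch was a block and -0.24 with replicate 4. Of the 3 comparisons this last one has no batch that holds both groups, so only the control arrays link the batches.

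The other S1pr3 probe sets did not all show this order. The second (1437173_at) read 5.82 to 6.27 in MIB control, 5.42 to 5.50 in the ACD mutant and 5.23, 5.32 and 5.90 in INV16 replicates 1 to 3. Its difference from MIB control was -0.60 in the ACD mutant (SE 0.15, adjusted p = 0.0781 over all 34945 probe sets) and -0.59 in INV16, where replicate 3 overlapped the controls, and INV16 and the ACD mutant differed by 0.02. INV16 replicate 4 read 5.69 on it, within the range of the other INV16 arrays. The third (1460661_at) was dim, at 4.14 to 4.59 on the 11 arrays and 5.12 in INV16 replicate 4. With the mean of the 3 probe sets, S1pr3 was lower by 0.70 in INV16 and by 0.48 in the ACD mutant (adjusted p = 0.0534) than in MIB control.

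**Figure D2:**
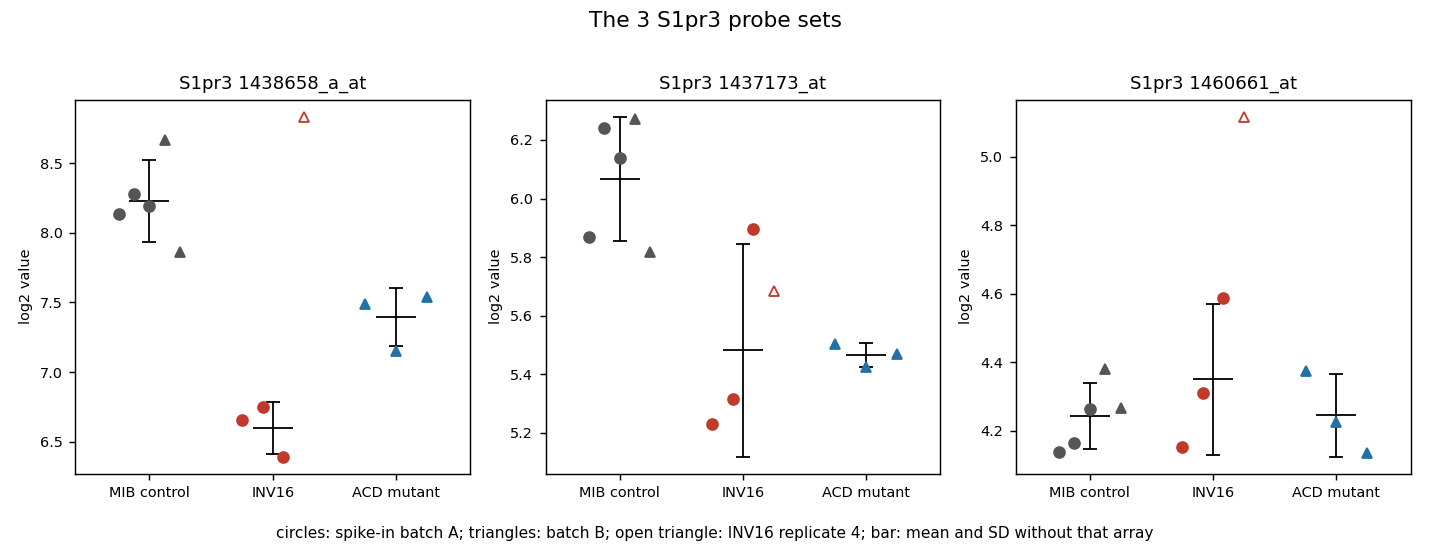
Log2 values of the 3 S1pr3 probe sets (y axis, log2 units; 1 panel each with its own scale) by array and group, with bars for mean and SD without INV16 replicate 4 (open triangle); circles are batch A, triangles batch B. The main probe set separates all 3 groups, the second places INV16 (5.48) and ACD mutant (5.47) together below MIB control (6.07), and the third shows no such difference.

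**Figure D3:**
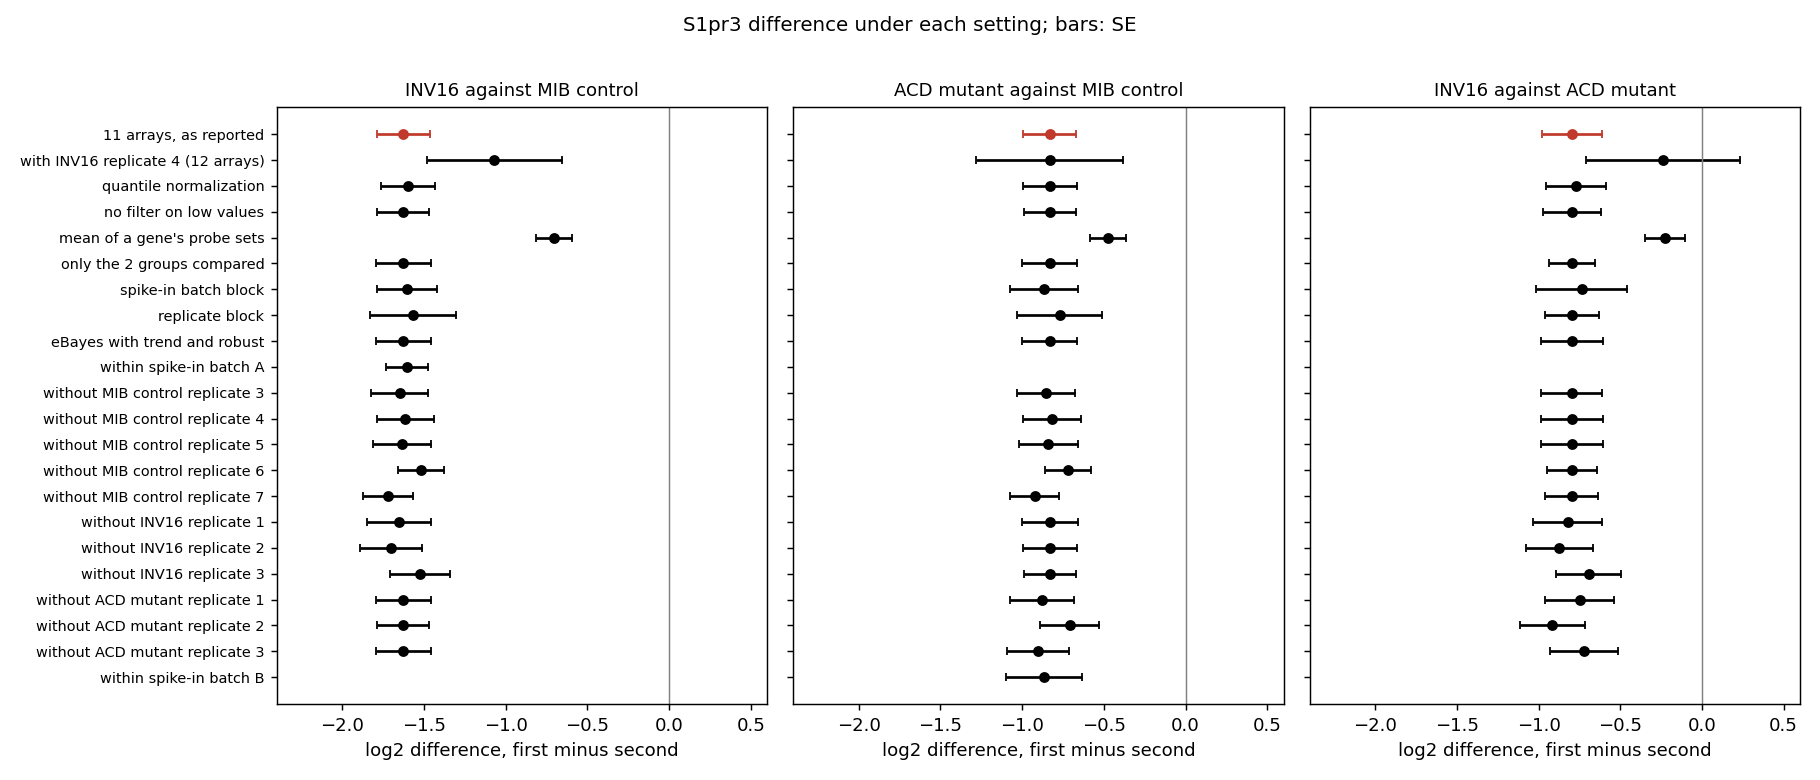
Log2 difference of S1pr3 (x axis; bars are 1 SE) in each of the 3 comparisons, as reported (red) and under each other setting of the analysis that could be fitted. Every estimate is below 0; the mean of the probe sets and the fit with INV16 replicate 4 lie nearest to 0 in INV16 against the ACD mutant, at -0.23 and -0.24.

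The mean of neutrophil markers was also lowest in INV16 replicates 1 to 3. The mean over 8 of them (7 above the filter) ran from 6.88 to 8.69 in MIB control, 6.95 to 7.39 in the ACD mutant and 6.28 to 6.82 in INV16 replicates 1 to 3. S100a8, a defining neutrophil gene, read 6.97 to 10.28, 6.54 to 7.34 and 5.03 to 5.48 in these groups. Of the 7 markers tested, 0 had a mean in INV16 above that in MIB control, but not all were set apart. Mpo read 12.62 to 13.48 in INV16 replicates 1 to 3 and 13.19 to 13.97 in MIB control, and Camp 5.71 to 5.94 and 5.51 to 6.42. MIB control replicate 6 had the highest value of the 11 arrays in both the neutrophil mean and S1pr3. INV16 replicate 4, high in S1pr3, was at 6.29 in the neutrophil mean. Other markers were lower in INV16 too. The median log2 difference from MIB control was -0.50 over neutrophil, -0.51 over megakaryocyte and -0.37 over monocyte and macrophage markers. It was -0.06 to 0.15 over the other marker lists. In the ACD mutant the medians were -0.26 over neutrophil, 0.83 over megakaryocyte and 0.36 over monocyte and macrophage markers. The part of any of these cells in the S1pr3 values was not tested.

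S1pr1, the receptor that leads cells towards S1P, went the opposite way. Its log2 values were 5.95, 6.00, 5.85, 6.16 and 6.37 in MIB control (6.07 ± 0.21, n = 5), 6.22, 6.65 and 6.71 in the ACD mutant (6.53 ± 0.27, n = 3) and 6.82, 6.90 and 6.65 in INV16 replicates 1 to 3 (6.79 ± 0.13, n = 3). INV16 and MIB control did not overlap, and the ACD mutant lay between and overlapped both; INV16 replicate 4, at 7.17, was on the side of the other INV16 arrays.

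S1pr1 was 0.72 log2 higher in INV16 than in MIB control (SE 0.14, 95% interval 0.42 to 1.03), 0.86 within batch A and 0.82 with replicate 4. In the ACD mutant it was 0.46 higher (SE 0.14, 95% interval 0.15 to 0.77), which missed the threshold (limma adjusted p = 0.103) and passed it only without MIB control replicate 7 (0.0428) among the settings run. Within batch B that difference was 0.26 (adjusted p = 0.422). INV16 and the ACD mutant differed by 0.26 (95% interval -0.08 to 0.61, adjusted p = 0.393), or 0.60 with a batch block (adjusted p = 0.318).

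S1pr2, a receptor that also couples to G12/13, was nearly level over the groups. Its main probe set (1447880_x_at) had a mean of 8.03 ± 0.17 in MIB control (n = 5), 8.16 ± 0.30 in the ACD mutant (n = 3) and 8.24 ± 0.15 in INV16 replicates 1 to 3, with ranges of 7.87 to 8.21, 7.90 to 8.48 and 8.12 to 8.42 that overlapped. The ACD mutant differed from MIB control by 0.13 (95% interval -0.18 to 0.43, limma adjusted p = 0.693) and INV16 by 0.21, or 0.40 with replicate 4. The other probe set (1428176_at) had the opposite sign in the ACD mutant, -0.19 (adjusted p = 0.527 over all probe sets), so no direction can be given. INV16 replicate 4 was high on the first, at 8.99, and low on the second, at 7.15.

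S1pr4, a receptor of blood and lymphoid cells, varied as much within MIB control as between groups. It read 8.53, 8.27, 8.53, 8.90 and 9.28 in MIB control replicates 3 to 7 (8.70 ± 0.39, n = 5), 8.83, 8.58 and 8.61 in the ACD mutant (8.67 ± 0.14, n = 3) and 8.51, 8.49 and 8.27 in INV16 replicates 1 to 3 (8.42 ± 0.14, n = 3). Both batch B controls were higher than the 3 of batch A. The ACD mutant differed from all controls by -0.03 (95% interval -0.43 to 0.37, limma adjusted p = 0.955) and from those of its own batch by -0.42 (95% interval -0.76 to -0.08, adjusted p = 0.173).

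In INV16 the difference of S1pr4 from MIB control was -0.28 over all controls, -0.02 within batch A and 0.02 with replicate 4, which read 9.61. INV16 and the ACD mutant did not overlap, with a difference of -0.25 (adjusted p = 0.563) that became 0.39 (adjusted p = 0.481) with a batch block. S1pr5, the remaining S1P receptor, was below the filter, at 3.66 to 3.94 on the 11 arrays.

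Of the kinases, Sphk1, the inducible cytosolic one, was dim on its main probe set (1451596_a_at), at 4.38 to 4.78 in MIB control, 4.54 to 4.85 in the ACD mutant and 4.53 to 4.93 in INV16 replicates 1 to 3. INV16 replicate 4 alone was high, at 9.06. In the fit without the filter, the ACD mutant differed from MIB control by 0.08 (95% interval -0.18 to 0.35, adjusted p = 0.844) and INV16 by 0.11, or 1.19 with replicate 4. Dim values such as these are compressed, which understates a change.

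Sphk2, the kinase found mainly in the nucleus and other organelles, read 7.10, 6.89, 7.03, 7.34 and 7.24 in MIB control (7.12 ± 0.18, n = 5), 7.04, 7.07 and 7.06 in the ACD mutant (7.06 ± 0.02, n = 3) and 6.79, 6.71 and 6.62 in INV16 replicates 1 to 3 (6.71 ± 0.09, n = 3). These INV16 arrays lay below every array of both other groups, and INV16 replicate 4, at 7.01, lay within the controls' range. The ACD mutant differed from MIB control by -0.07 (95% interval -0.30 to 0.17, limma adjusted p = 0.812).

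INV16 was 0.42 log2 lower in Sphk2 than MIB control (SE 0.11), -0.30 within batch A and -0.34 with replicate 4. Against the ACD mutant it was 0.35 lower (95% interval -0.61 to -0.09, adjusted p = 0.145), but -0.07 with a batch block (adjusted p = 0.899). The second Sphk2 probe set (1426230_at) differed from MIB control by -0.09 in INV16 and 0.12 in the ACD mutant. A promoter window of Sphk2 with TGTGGT is printed above, its other window held no match, and a link to these values was not tested.

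Sgpl1, the lyase that ends S1P signalling, spread most among the INV16 arrays. It read 7.04, 7.32 and 5.87 in INV16 replicates 1 to 3 and 4.83 in replicate 4, against 6.39 to 6.83 in MIB control (6.63 ± 0.16, n = 5) and 6.51, 6.55 and 7.08 in the ACD mutant. The INV16 arrays thus lay on both sides of the controls. The ACD mutant differed from MIB control by 0.09 (95% interval -0.47 to 0.65, limma adjusted p = 0.905) and INV16 by 0.12 (95% interval -0.44 to 0.68), or -0.36 with replicate 4. The second Sgpl1 probe set was below the filter.

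Among the 6 members tested, 1 was called at an adjusted p under 0.05 in the ACD mutant against MIB control, S1pr3, lower; of all 12918 genes 1.70% were called there (220, 128 higher and 92 lower). In both comparisons with INV16 the members are described and not counted by a threshold; of all genes 1.70% (219) were called in INV16 against MIB control and 2.07% (267) in INV16 against the ACD mutant. The 220 fell to 3 without ACD mutant replicate 1, 5 without ACD mutant replicate 2, 32 without MIB control replicate 5, 102 without INV16 replicate 1 and 116 without MIB control replicate 3, and rose to 591 without MIB control replicate 7.

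With INV16 replicate 4 in the fit, limma called 0% (0) of all genes in the ACD mutant against MIB control. There 892 genes (6.91%) had an unadjusted p under 0.05, and 1 of the 6 members tested, S1pr1, was among them. Limma called 0.155% (20) in INV16 against MIB control and 0.0387% (5) in INV16 against the ACD mutant. The groups of 3 members, S1pr1, S1pr3 and Sphk2, did not overlap in INV16 against MIB control (9.26% of all genes). Those of 1, S1pr3, did not overlap in the ACD mutant against MIB control (12.8%). Those of 3, S1pr3, S1pr4 and Sphk2, did not overlap in INV16 against the ACD mutant (28.6%). The counts with INV16 are a description only. S1pr3, the gene that the family was chosen on, is in each of these counts of groups that did not overlap. With 6 genes the counts were not tested against the shares of all genes.

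**Figure D4:**
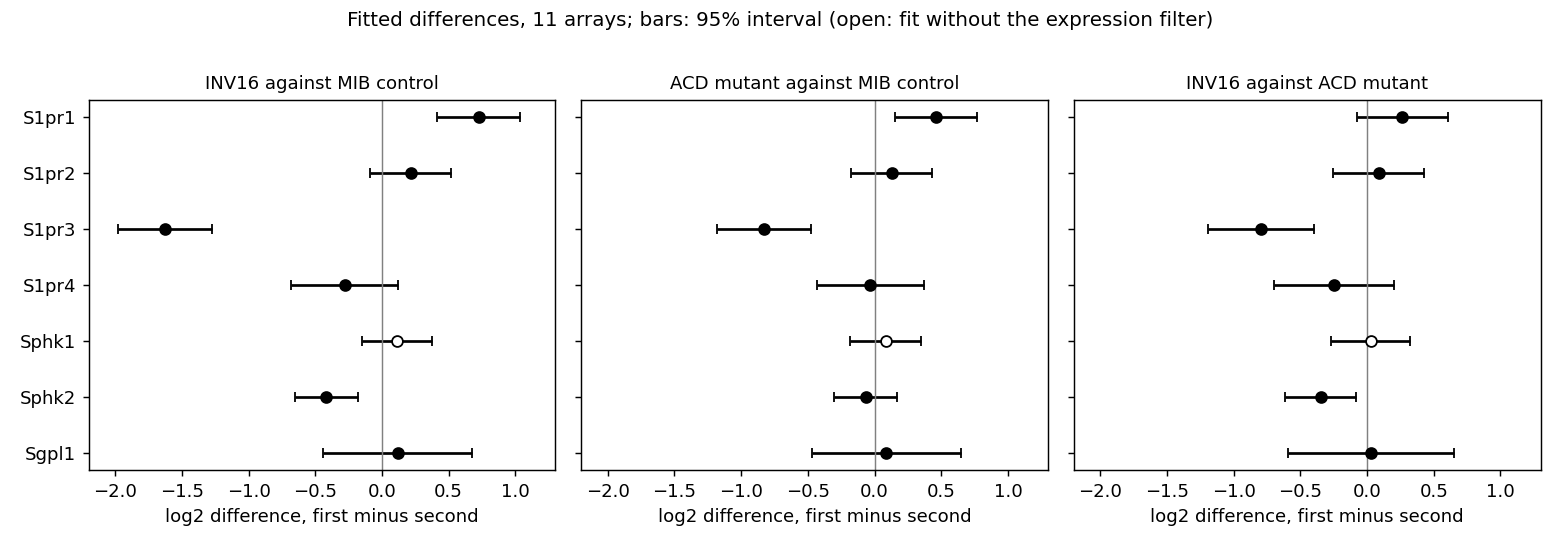
Fitted log2 differences of the 7 genes (x axis; bars are 95% intervals) in the 3 comparisons over 11 arrays; Sphk1, drawn open, is from the fit without the filter. S1pr3 is below 0 in all 3, at -1.63, -0.83 and -0.80, the interval of S1pr1 includes 0 in INV16 against the ACD mutant and lies above 0 in the other comparisons, and the intervals of S1pr2, S1pr4, Sphk1 and Sgpl1 include 0 in all 3.

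The wider pathway was read from a list of 38 genes of S1P transport, S1P breakdown and ceramide metabolism, of which 34 were on the array and 28 were tested. In INV16 against MIB control 0 were higher and 1 lower, Spns2, where 1.70% of all genes were called. The median difference was -0.04 over the list and -0.03 over all genes. In the ACD mutant against MIB control limma called 0 of the 28 (7 at an unadjusted p under 0.05, where 19.5% of all genes were), with a median of 0.03 and 0.01 over all genes. In INV16 against the ACD mutant 1 was higher, Sptlc2, and 2 lower, Spns2 and Cerk, where 2.07% of all genes were called. The median there was -0.10 and -0.02 over all genes.

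Spns2, which carries S1P out of cells, was the transporter that passed the test. It read 10.41 to 11.12 in MIB control (10.64 ± 0.27, n = 5), 10.69, 11.09 and 10.92 in the ACD mutant (10.90 ± 0.20, n = 3) and 9.91, 9.70 and 9.88 in INV16 replicates 1 to 3 (9.83 ± 0.12, n = 3). All 4 INV16 arrays were lower than all others, and replicate 4, at 7.43, far lower.

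Spns2 fell by 0.81 log2 in INV16 against MIB control (SE 0.15, limma adjusted p = 0.0181) and kept the call with a batch block (-0.66, adjusted p = 0.0498). It was 1.07 lower in INV16 than in the ACD mutant (SE 0.17, adjusted p = 0.00999), a call lost with that block (-0.69, adjusted p = 0.304). With INV16 replicate 4 both differences were larger, -1.41 and -1.67, and neither was called (adjusted p = 0.265 and 0.235). The ACD mutant differed from MIB control by 0.26 (adjusted p = 0.392).

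Mfsd2b, the S1P exporter of red cells and platelets, had the largest difference of the list in the ACD mutant, 1.07 log2 higher than MIB control, which missed the threshold (adjusted p = 0.147). Its values were 5.87, 6.69, 6.47, 7.16 and 8.36 in MIB control replicates 3 to 7 and 7.96, 7.99 and 7.99 in the ACD mutant. They were 6.48 to 6.67 in INV16 replicates 1 to 3, and INV16 replicate 4 had the highest value of all arrays, 8.47. Megakaryocyte markers were also high on MIB control replicate 7 and the ACD mutant arrays, but not on INV16 replicate 4. Their mean over 9 genes (8 above the filter) was 8.66 in MIB control replicate 7 and 6.88 to 7.36 in the other controls. It was 7.97 to 8.33 in the ACD mutant, 6.93 to 7.02 in INV16 replicates 1 to 3 and 7.08 in INV16 replicate 4. The part of these markers in the Mfsd2b values was not tested. The difference was 0.22 with a batch block, and another Mfsd2b probe set differed by 0.14. INV16 differed from the ACD mutant by -1.39 (adjusted p = 0.105), and this difference was 0.03 with that block and -0.92 with INV16 replicate 4. From MIB control INV16 differed by -0.32, or 0.15 with replicate 4.

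Among the enzymes of ceramide metabolism, Cerk, which phosphorylates ceramide, was 0.71 log2 lower in INV16 than in the ACD mutant (8.32 ± 0.06 against 9.03 ± 0.22, n = 3 each; adjusted p = 0.0222). Sptlc2, a subunit of the first enzyme of sphingolipid synthesis, was 0.49 higher (10.35 ± 0.11 against 9.87 ± 0.10; adjusted p = 0.0452), but its other probe sets differed by -0.10 and 0.32. Both calls were lost with a batch block (adjusted p = 0.342 and 0.462) and with INV16 replicate 4 (0.705 and 0.160). Against MIB control, Cerk differed by -0.25 in INV16 and by 0.46 in the ACD mutant (limma adjusted p = 0.339 and 0.0655). Sptlc2 differed by 0.14 in INV16 and by -0.35 in the ACD mutant (adjusted p = 0.551 and 0.0880). In both genes the ACD mutant thus lay further from MIB control than INV16 did, and neither difference was called. The others are named for the size of their differences and missed the threshold. Sgms2, a sphingomyelin synthase, differed from MIB control by -0.84 in INV16 and by -0.86 in the ACD mutant (adjusted p = 0.502 and 0.442), with controls from 4.34 to 7.26. Cers6, a ceramide synthase, differed by -0.63 in INV16 (adjusted p = 0.114). The acid sphingomyelinase Smpd1 differed by 0.70 in the ACD mutant (adjusted p = 0.0794), by 0.24 with a batch block and by 0.19 on another probe set.

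**Figure D5:**
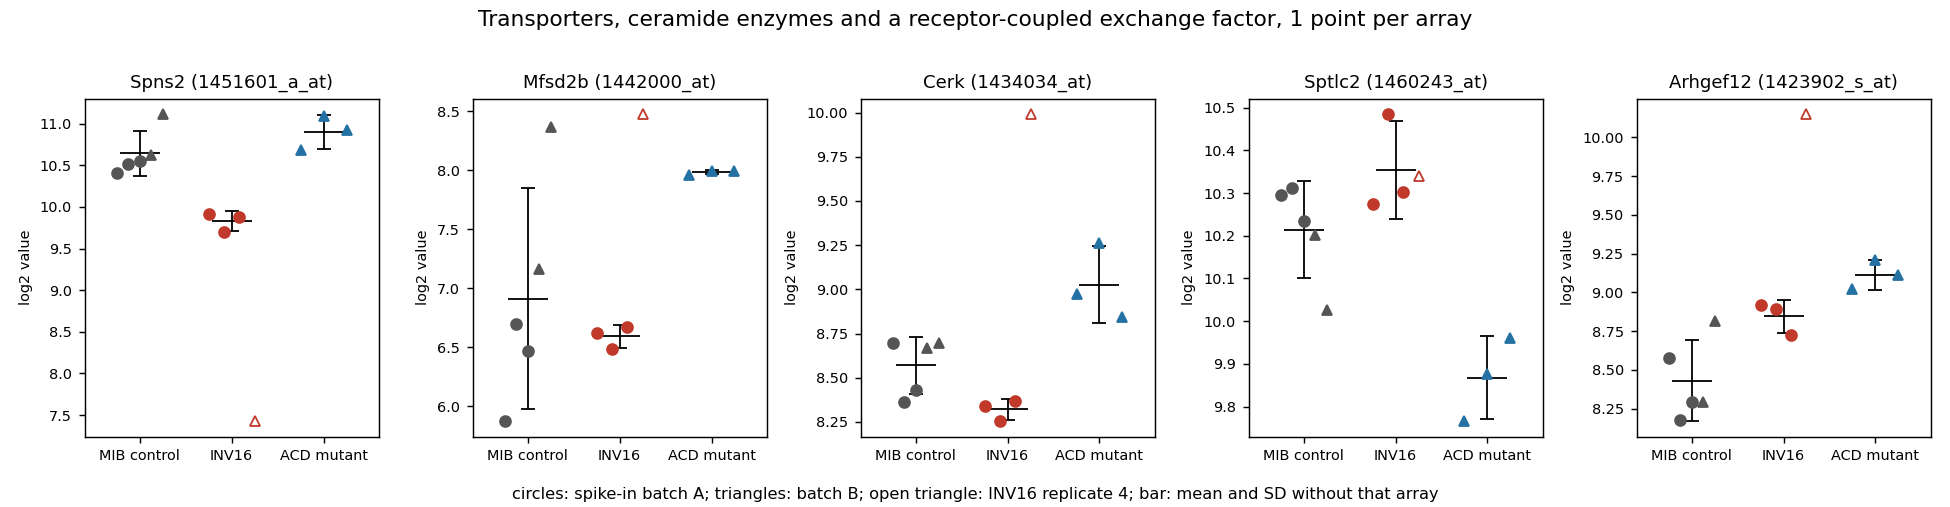
Log2 values (y axis, log2 units) by array for the transporters Spns2 and Mfsd2b, the enzymes Cerk and Sptlc2 and the exchange factor Arhgef12, with mean and SD without INV16 replicate 4 (open triangle); circles are batch A, triangles batch B. Spns2 is lowest in INV16. Mfsd2b is high in the ACD mutant, in MIB control replicate 7 (8.36) and in INV16 replicate 4 (8.47). Arhgef12 has a mean of 9.11 in ACD mutant and 8.43 in MIB control arrays.

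A second list held 26 genes of receptor coupling and trafficking, such as G proteins, exchange factors, arrestins and Cd69; 24 were on the array and 23 were tested. In the ACD mutant against MIB control, where 1.70% of all genes were called, 1 was called, Arhgef12, a guanine nucleotide exchange factor that G12/13 activates. It rose by 0.68 log2 (SE 0.14, adjusted p = 0.0360), from 8.43 ± 0.26 (n = 5) to 9.11 ± 0.09 (n = 3), and lost the call with a batch block (difference 0.56, adjusted p = 0.132) and with INV16 replicate 4 (adjusted p = 0.651). Its other 2 probe sets above the filter differed by -0.06 and 0.21. In INV16, limma called 0 of the 23 against MIB control (5 at an unadjusted p under 0.05, where 15.8% of all genes were) and 0 against the ACD mutant (4, where 19.0% of all genes were).

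The genes whose log2 values ran most like those of S1pr3 over the 11 arrays, by Pearson's r, were Sh2d5 (0.93), S100a8 (0.92), Coq2 (0.92), Atp6v1a (0.91) and Zdhhc13 (0.91). With INV16 replicate 4 as a further array these were 0.005, 0.64, -0.29, 0.41 and 0.34. Sh2d5 read 8.75 or more in every MIB control array, 8.32 to 8.49 in the ACD mutant, 7.42 to 7.77 in INV16 replicates 1 to 3 and 5.20 in replicate 4, so it had the order of S1pr3 on the 11 arrays and lay opposite to it on INV16 replicate 4. The arrays share groups and batches, so the values describe a shared pattern of 11 points and no more.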

How the data were processed

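RNA of 12 samples was measured on Affymetrix mouse arrays, 1 array per sample, after 2-cycle amplification, per the labels' protocols. The deposited table holds log2 values of 45101 probe sets, already summarised by the authors. The values themselves showed the log base; for background correction and normalization no method is given in the sources used. All array columns were used (0 left out). Arrays carry no read depth, and their number limits the precision.

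Probe set names are those of the platform annotation. A probe set was kept when it had 1 symbol and its mean exceeded the 40th percentile of all means (5.10 log2), and each gene was represented by its brightest, which left 12918 genes. A mean per group was fitted with limma (version 3.58.1, R version 4.3.3) on 11 arrays, leaving out INV16 replicate 4, with 8 residual and 5.04 prior degrees of freedom; tests are two-sided, with Benjamini-Hochberg adjustment over all genes and calls at an adjusted p under 0.05. The fit was tested on simulated data.

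The members, the lists and the tests were chosen with earlier results of these data known. Named are all members, called genes of the 2 S1P lists (up to 4 in each direction), the 3 largest differences of these lists in each comparison, and the 5 genes most like S1pr3. Of 11 lists, 9 hold markers. Mean levels not given above follow, as the range over the 11 arrays and then the value of INV16 replicate 4. They were 7.50 to 8.40 and 7.02 for monocyte and macrophage, and 6.05 to 6.56 and 7.86 for erythroid markers. They were 5.13 to 5.40 and 5.52 for lymphoid, and 6.03 to 6.47 and 6.09 for endothelial markers. For stromal and smooth muscle markers they were 5.09 to 5.29 and 5.42. Alternatives changed the normalization, the filter, the probe set rule, the arrays and the model, and added a spike-in batch or replicate block. Samples were not treated as paired by replicate number. The correlations of same-numbered arrays' deviations ran from -0.33 to 0.09, which with so few arrays cannot show whether samples were paired.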

Additional observations from a re-analysis of the deposited data

Results flagged for a closer look

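INV16 replicate 4 lay apart from the other arrays in several members. Among the 4 INV16 arrays its values of 8.83 for S1pr3 (1438658_a_at) and 9.06 for Sphk1 (1451596_a_at) were separated from the rest by more than Dixon's limit, which chance exceeds in about 1 in 20 groups. It also read above the highest MIB control array in S1pr1 (7.17), the S1pr2 probe set 1447880_x_at (8.99), S1pr3 (8.83, and 5.12 on the dim probe set 1460661_at), S1pr4 (9.61), both Sphk1 probe sets (9.06, and 5.18 on 1420566_at) and the Sphk2 probe set 1426230_at (5.89). The same array had the mast cell, progenitor and Gapdh values given above, and their part in these values was not tested.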

How the results depend on the processing

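S1pr3 kept its direction in every setting run, in all 3 comparisons. In the ACD mutant against MIB control its call was lost with INV16 replicate 4 (-0.83), with only the 2 groups (-0.83, adjusted p = 0.0559), with the mean of its probe sets (-0.48), with the batch block and within batch B (both -0.87); leaving out single arrays gave -0.92 to -0.71. With INV16 replicate 4 and with the mean of probe sets it was -1.07 and -0.70 in INV16 against MIB control, and -0.24 and -0.23 against the ACD mutant. The counts of genes called (219 in INV16 against MIB control, 220 in the ACD mutant against MIB control, 267 in INV16 against the ACD mutant) were 20, 0 and 5 with INV16 replicate 4 and 93, 72 and 840 with only the 2 groups; the batch block gave 20 in the second and 0 in the third, within batch A the first was 30, within batch B the second was 42, and the mean of probe sets gave 143 in the third. Without single arrays the first ranged from 29 (INV16 replicate 1) to 332 (MIB control replicate 4). The second ranged from 3 (ACD mutant replicate 1) to 591 (MIB control replicate 7). The third ranged from 36 (ACD mutant replicate 2) to 505 (MIB control replicate 7). Without single arrays the members called in the ACD mutant against MIB control ranged from 0 to 2. Members called are not counted in the comparisons with INV16, since S1pr3 was chosen on those arrays. In the ACD mutant against MIB control, members called were 0 with INV16 replicate 4 and with only the 2 groups. They were also 0 there with the mean of probe sets, with the batch block and within batch B. The replicate number as a block, although the numbers do not pair the samples, gave 1, 24 and 380 genes. It gave 0 members in the ACD mutant against MIB control, S1pr3 at -0.77 (adjusted p = 0.240), S1pr4 at 0.027 and Sgpl1 at -0.15. Small differences changed sign: in the ACD mutant against MIB control S1pr2 (-0.028), Sphk2 (0.026) and Sgpl1 (-0.053) with the mean of probe sets, and in INV16 against the ACD mutant S1pr2 (-0.077) and S1pr4 (0.39) with the batch block, and S1pr4 (0.047) and Sgpl1 (-0.45) with INV16 replicate 4. Leaving out single arrays gave S1pr2 -0.034 to 0.26, S1pr4 -0.14 to 0.11 and Sgpl1 -0.10 to 0.19 in the ACD mutant against MIB control, and S1pr2 -0.043 to 0.25 and Sgpl1 -0.26 to 0.47 in INV16 against the ACD mutant. The cause of these changes was not tested. Sphk1 was fitted without the filter alone. Dim values limit what can be seen of Sphk1, S1pr5 and the third S1pr3 probe set.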
